A study of Mus musculus with 18 samples.

Results

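The receptors that guide myeloid cells along chemokine gradients were followed here through the conversion of mouse monocytes into monocyte-derived cells (MDCs): *Ccr1*, *Ccr2*, *Cx3cr1*, *Cxcr2* and *Cxcr4*. They were chosen by name, as the 5 genes of the expression table whose symbol equals one of these, out of 20298 genes in all, and the rule uses no measured value. All are seven-membrane-pass receptors that couple to inhibitory G proteins. On binding a chemokine they release the G protein beta-gamma subunits, which switch on phosphoinositide 3-kinase gamma and phospholipase C beta and steer the actin cytoskeleton, and they are then phosphorylated by G protein-coupled receptor kinases and taken up with arrestins. In the mouse, CCR2 draws classical Ly6C-high monocytes out of the bone marrow towards CCL2 and CCL7, CXCR4 holds immature leukocytes in the marrow through CXCL12, CX3CR1 marks nonclassical monocytes and several tissue macrophages and binds CX3CL1, CCR1 responds to CCL3, CCL5, CCL6 and CCL9, and CXCR2 is the main neutrophil receptor for CXCL1 and CXCL2.

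The study compared WT mice with *Stat5a*-*Stat5b* double knock-in (DKI) mice, both C57BL/6. In DKI mice the N-domain of both STAT5 proteins is mutated in every cell, so that STAT5 forms dimers but not tetramers. Monocytes labelled as Ly6C+ and CCR2+ were enriched from bone marrow by negative selection and left untreated (day 0) or kept for 3 or 6 days in medium holding GM-CSF at 20 ng/mL, and each of the 6 groups held 3 libraries. Every cultured group received GM-CSF, so its effect and that of time in culture cannot be told apart. The age of the mice and whether marrow was pooled are not given in the sources used here. The design describes 3 independent experiments, and the study's single-end mRNA libraries are named with the year 2015 for replicate 1 of days 3 and 6 in both genotypes (4 libraries) and 2016 for the other 14, so a receptor's result whose call was gained or lost, or whose fold moved by over 1.5 times, without those 4 libraries is also given without them.

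The levels below are RPKM (reads scaled to transcript length in kb and to the mapped reads of the library), a scale that is per length and allows levels of different genes to be set side by side. Depth was 29.5 to 43.2 M mapped reads per library (median 36.4 M). Differences are on the log2(RPKM + 1) scale, and a gene was called where its adjusted p in limma was under 0.05 and its fold over 1.5. The samples are labelled as liver, yet of 8 hepatocyte and Kupffer cell markers *Alb*, *Ttr*, *Serpina1c* and *Cyp3a11* were at 0 in all 18 libraries and the 8 together summed to at most 0.634 RPKM. Of 11 classical monocyte markers, 10 were above 2 RPKM in every library, and *Ly6c2* itself lay between 953 and 1762 RPKM on day 0. The neutrophil marker list summed to between 2543 and 5331 RPKM in the day 0 libraries. In bulk samples such as these, fewer cells of a type and less RNA per cell cannot be told apart.

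The genes lie on 2 chromosomes (GRCm38, the mm10 build). *Ccr1* (chromosome 9, 123962126 to 123968692) and *Ccr2* (chromosome 9, 124101918 to 124109140) are separated by 133 kb, and *Cx3cr1* (chromosome 9, 120048683 to 120068296) lies 3.89 Mb from *Ccr1*. *Cxcr2* (chromosome 1, 74153994 to 74161246) and *Cxcr4* (chromosome 1, 128588199 to 128592299) are 54.4 Mb apart. Runs of 50 bases shared with transcripts of another gene made up 0% of the *Ccr1* and *Cxcr4* transcripts, 1.06% of *Cx3cr1*, 1.91% of *Ccr2* and 6.68% of *Cxcr2*. Whether reads matching several genes were counted is not given in the sources used here, so levels of these genes carry that uncertainty in those stretches.

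The promoters of *Cxcr4* and *Cx3cr1*, which fell from day 0 to day 3, and of *Ccr1*, which was called between genotypes on day 3, are shown as the 250 bases before the RefSeq start on the gene's own strand (GRCm38.p6), because STAT5 is the protein altered in DKI mice. Capitals mark the letters GAGGAA (or TTCCTC, its reverse complement), the core bound by the myeloid factor PU.1, and GGGCGG (or CCGCCC), the GC box bound by SP1. The STAT5 palindrome TTCNNNGAA, its own reverse complement, was searched as well.
*Cxcr4* promoter, chr1:128592300-128592549, minus strand: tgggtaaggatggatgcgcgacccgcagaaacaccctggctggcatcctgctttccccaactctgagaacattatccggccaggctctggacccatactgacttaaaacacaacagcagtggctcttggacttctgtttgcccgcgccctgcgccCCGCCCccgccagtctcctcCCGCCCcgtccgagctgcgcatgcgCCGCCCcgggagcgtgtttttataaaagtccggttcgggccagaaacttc
*Cx3cr1* promoter, chr9:120068297-120068546, minus strand: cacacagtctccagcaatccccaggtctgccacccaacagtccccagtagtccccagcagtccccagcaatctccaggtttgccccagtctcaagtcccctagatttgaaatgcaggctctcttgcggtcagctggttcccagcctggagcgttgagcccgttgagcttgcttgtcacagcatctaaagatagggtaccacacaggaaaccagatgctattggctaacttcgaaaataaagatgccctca
*Ccr1* promoter, chr9:123968693-123968942, minus strand: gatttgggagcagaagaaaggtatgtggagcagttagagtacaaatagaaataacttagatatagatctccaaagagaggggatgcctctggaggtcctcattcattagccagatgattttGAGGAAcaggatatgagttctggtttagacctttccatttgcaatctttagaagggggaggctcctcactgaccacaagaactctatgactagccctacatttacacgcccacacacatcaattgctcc

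The letters TTCNNNGAA occurred in 0 of the 5 members' windows, against 7.02% of the 32851 RefSeq windows of the same length. GAGGAA occurred once in the *Ccr1* window and once in that of *Cxcr2*, and in 23.3% of all windows. The *Cxcr4* window held 3 GC boxes and a GC content of 61.2%, whereas those of *Ccr1*, *Ccr2*, *Cx3cr1* and *Cxcr2* held 0, and 32.7% of all windows held at least 1. The *Ccr2* window (chromosome 9, 124101933 to 124102182) lay inside the gene span given above, so the bases before that span were not searched. These matches describe letters in these windows only. At a background of 7.02%, 0 of 5 windows says little about STAT5. The paper states that STAT5 tetramers can bind weaker motifs that depart from the consensus, and such motifs were not searched.

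Before GM-CSF, the monocytes carried much *Cxcr4*, *Ccr2* and *Ccr1*, less *Cx3cr1* and almost no *Cxcr2*. In WT monocytes the group means were 355 RPKM for *Cxcr4*, 343 for *Ccr2*, 142 for *Ccr1*, 43.7 for *Cx3cr1* and 0.547 for *Cxcr2*. In DKI monocytes they were 340 RPKM for *Cxcr4*, 365 for *Ccr2*, 135 for *Ccr1*, 40.6 for *Cx3cr1* and 0.628 for *Cxcr2*. Summed over the 5 receptors, WT monocytes held 885 RPKM and DKI monocytes 881 RPKM. The ranges of the genotypes overlapped for each of the 5, and 1.03% of all genes were without overlap.

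Of the 4 receptors that passed the filter on low values at day 0, 0 were called between genotypes, with 0 of all 9179 genes called (0% background) by limma and 44 genes at an unadjusted p under 0.05. With voom, limma's weighting for read counts, 0 genes were called as well, and 33 had an unadjusted p under 0.05. The 95% intervals of the difference, DKI minus WT on the log2 scale, were -0.55 to 0.47 for *Cxcr4*, -0.86 to 0.70 for *Ccr1*, -1.29 to 1.37 for *Ccr2* and -1.54 to 1.33 for *Cx3cr1*. The replicate numbers differed in parallel in both genotypes. *Ccr2*, for example, was 182, 333 and 515 RPKM in WT replicates 1, 2 and 3 and 172, 339 and 584 RPKM in DKI replicates 1, 2 and 3. With the replicate number as a block, the standard error for *Ccr2* at day 0 was 0.065 in place of 0.55.

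**Figure D1:**
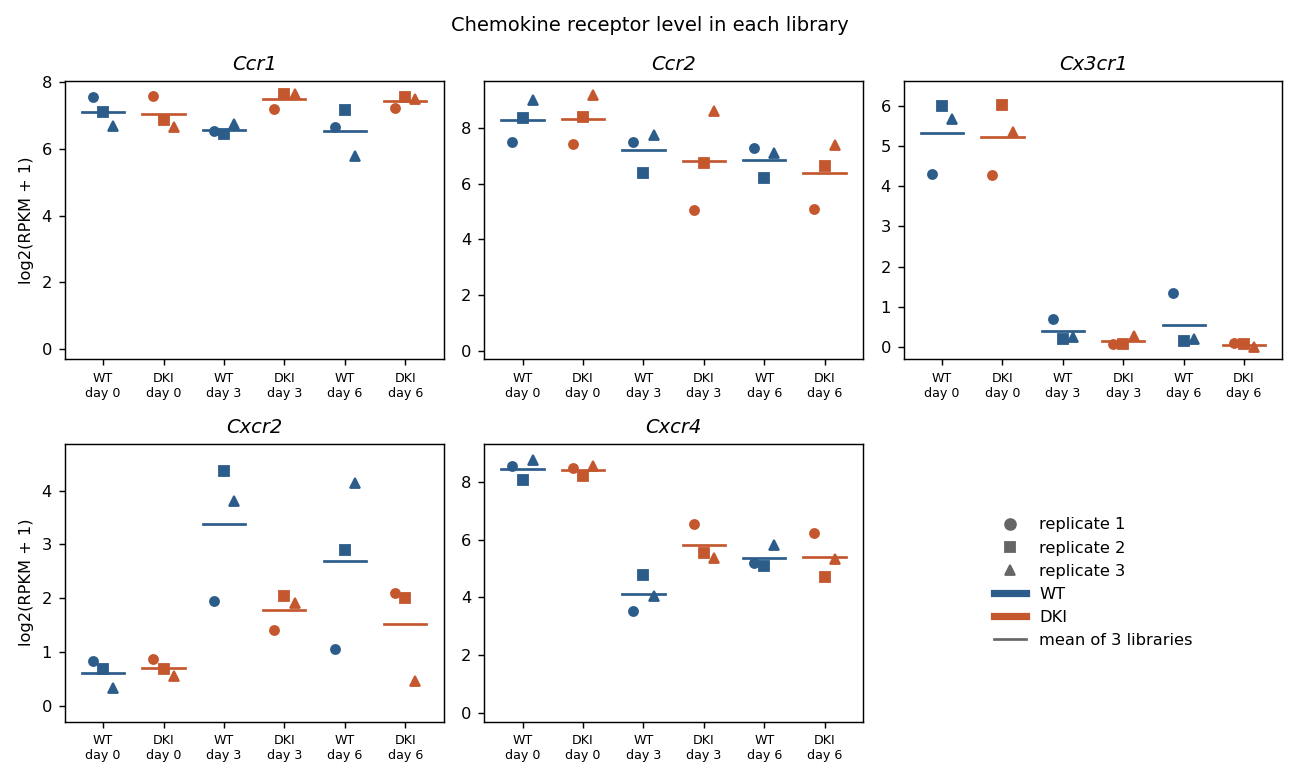
Level of the 5 receptors in each of the 18 libraries, as log2(RPKM + 1), by group. Points are libraries, with a symbol for each replicate number, and horizontal lines are means of 3 libraries. *Cx3cr1* and *Cxcr4* of all 12 MDC libraries lie below the 6 day 0 libraries, and on day 3 *Ccr2* of DKI MDCs runs from 32.5 to 395 RPKM.

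From day 0 to day 3 of culture with GM-CSF, *Cx3cr1* and *Cxcr4* fell and *Cxcr2* rose in both genotypes. These 3 of 5 receptors were called in WT cells, where 4283 of 9938 genes (43.1%) were called, 20.3% higher and 22.8% lower, and the same 3 were called in DKI cells, where 3394 of 9922 genes (34.2%) were called, 13.1% higher and 21.1% lower. *Cx3cr1* and *Cxcr2* passed the filter on one side of the comparison only, *Cx3cr1* through day 0 and *Cxcr2* through day 3. Of all genes tested, 61% had groups that did not overlap in WT and 55.2% in DKI, and the same 3 receptors were without overlap in each genotype.

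Summed levels of marker lists also differed between these days. The 11 classical monocyte markers, a list without *Ccr2* itself, summed to 13301 to 20116 RPKM in WT monocytes and 1860 to 4044 RPKM in WT MDCs of day 3. The DKI sums overlapped, with a median of 16255 RPKM and a highest value of 17205 RPKM in monocytes and a range of 9435 to 21667 RPKM around a median of 16105 RPKM in MDCs of day 3. In WT cells 2 of the 11 were called higher and 6 lower, and in DKI cells 3 higher and 4 lower. The list includes *Fcgr1*, which the paper names as a macrophage signature gene, and a sum is carried by its most abundant genes. The 8 monocyte-derived dendritic cell markers summed to 128 to 289 RPKM in monocytes and, on day 3, to 12201 to 13614 RPKM in WT and 789 to 2417 RPKM in DKI MDCs. Of these 8, 6 were called higher and 0 lower in WT cells, and 4 higher and 1 lower in DKI cells. The 10 macrophage markers summed to 335 to 598 RPKM in monocytes and, on day 3, to 448 to 1275 RPKM in WT and 3775 to 8718 RPKM in DKI MDCs. Of these 10, 5 were called higher and 1 lower in WT cells, and 10 higher and 0 lower in DKI cells. The 8 nonclassical monocyte markers, a list without *Cx3cr1* itself, summed to 273 to 847 RPKM in WT and 299 to 766 RPKM in DKI monocytes, and to 87.4 to 132 RPKM in WT and 67.7 to 130 RPKM in DKI MDCs of day 3. In WT cells 2 of these 8 were called higher and 3 lower, and in DKI cells 1 was called higher and 4 lower of 7 fitted. The neutrophil markers had 1 gene called higher and 6 lower in WT cells (13 fitted) and 1 higher and 3 lower in DKI cells (14 fitted). Erythroid markers summed to 3.86 to 33.6 RPKM in monocytes and at most 0.111 RPKM in MDCs of day 3, and eosinophil, basophil and mast cell markers to 157 to 487 RPKM in monocytes and 38.8 to 70.9 RPKM in MDCs of day 3. Their part in the receptor changes was not tested.

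*Cx3cr1*, the fractalkine receptor, was close to silent in MDCs. It measured 18.7, 62.5 and 49.96 RPKM in WT and 18.5, 63.6 and 39.6 RPKM in DKI monocytes (replicates 1, 2 and 3). On day 3 it was 0.631, 0.157 and 0.183 RPKM in WT and 0.0546, 0.0545 and 0.198 RPKM in DKI MDCs. Every MDC library lay far below every monocyte library. The ratio of mean RPKM, day 0 to day 3, was 135 in WT and 396 in DKI cells. Each ratio depended on 1 MDC library, and was 257 without WT replicate 1 of day 3 and 744 without DKI replicate 3 of day 3. On the log2(RPKM + 1) scale, which understates the change of a gene that ends near 0, the change was -4.93 ± 0.43 (SE, n = 3 against 3, limma adjusted p = 0.000301) in WT and -5.08 ± 0.42 (limma adjusted p = 0.000922) in DKI cells. The DKI change minus the WT change was -0.14 (95% interval -1.60 to 1.31, limma adjusted p = 0.952), and it was -0.86 with a pseudocount of 0.1, also not called (limma adjusted p = 0.702).

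On day 6, *Cx3cr1* was 1.52, 0.106 and 0.142 RPKM in WT and 0.0625, 0.055 and 0 RPKM in DKI MDCs, without overlap, as was so for 37.2% of all genes tested on that day. WT replicate 1, named with the year 2015, was highest on both days. DKI replicate 3 of day 6 held 0 reads of *Cx3cr1*, and the other 2 libraries of that group held at most 8. A count of 0 allows up to 3 reads, which for *Cx3cr1* is 0.0186 to 0.0272 RPKM across the libraries, for counting error only. *Cx3cr1* was not fitted between genotypes on days 3 and 6, since no group mean passed 2 RPKM. Fitted without that filter, DKI minus WT was -0.25 on day 3 (limma adjusted p = 0.405) and -0.50 on day 6 (limma adjusted p = 0.438).

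*Cxcr4*, the CXCL12 receptor, fell in both genotypes. It was 369, 266 and 431 RPKM in WT and 357, 293 and 369 RPKM in DKI monocytes. On day 3 it was 10.6, 26.2 and 15.5 RPKM in WT and 91.5, 45.0 and 40.5 RPKM in DKI MDCs. All 3 DKI libraries lay above all 3 WT libraries, and all 6 lay below the monocytes. The ratio of mean RPKM, day 0 to day 3, was 20.4 in WT and 5.76 in DKI cells. The log2 difference was -4.34 ± 0.33 (SE, n = 3 against 3, limma adjusted p = 0.000182) in WT and -2.59 ± 0.33 (limma adjusted p = 0.00316) in DKI cells. The fall was smaller in DKI cells by 1.74 (95% interval 0.63 to 2.85), which did not pass correction (limma adjusted p = 0.103) in a test that called 297 of 10212 genes (2.91%), 0 of them among the 5 receptors. Without replicate 1 of both genotypes on day 3 it was 1.09 (limma adjusted p = 0.208).

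*Cxcr2*, which was at most 0.820 RPKM in each of the 6 monocyte libraries, appeared in MDCs. On day 3 it was 2.84, 19.7 and 13.03 RPKM in WT and 1.65, 3.09 and 2.73 RPKM in DKI MDCs. It was higher in all 6 day 3 libraries than in all 6 monocyte libraries, and the highest levels were in WT replicates 2 and 3. The ratio of mean RPKM, day 3 to day 0, was 21.7 in WT and 3.97 in DKI cells. On the log2 scale *Cxcr2* rose by 2.76 ± 0.59 (SE, n = 3 against 3, limma adjusted p = 0.00836) in WT and by 1.08 ± 0.26 (limma adjusted p = 0.0194) in DKI cells. Without replicate 1 of day 3 the rise in WT cells was 3.48 (limma adjusted p = 0.000721). The size of the rise depended on the scale, and with a pseudocount of 0.1 it was 3.92 in WT (limma adjusted p = 0.0049) and 1.82 in DKI cells (limma adjusted p = 0.0164). With voom on recovered reads it was 4.12 (limma adjusted p = 0.0375) and 1.93 (limma adjusted p = 0.0221). The call in DKI cells was lost when any one of 4 libraries was left out, DKI replicate 2 or 3 of day 0 or DKI replicate 2 or 3 of day 3, with limma adjusted p of 0.0532 to 0.0581. It was also lost when all 18 libraries shared one estimate of the spread (limma adjusted p = 0.205).

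The change of *Cxcr2* in DKI cells minus that in WT cells was -1.68 (95% interval -3.22 to -0.14), which did not pass correction over all genes (limma adjusted p = 0.269). WT replicate 1 of day 3 decided this result: without it the difference was -2.39 (limma adjusted p = 0.00883), and without replicate 1 of both genotypes it was -2.21 (limma adjusted p = 0.00886).

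*Ccr1* and *Ccr2* were not called between day 0 and day 3 in either genotype. The log2 differences of *Ccr1* had opposite signs, at -0.54 (95% interval -1.11 to 0.03, limma adjusted p = 0.103) in WT and 0.45 (95% interval -0.24 to 1.15, limma adjusted p = 0.255) in DKI cells. The difference of these changes was 0.99 (95% interval 0.12 to 1.86, limma adjusted p = 0.243). *Ccr2*, the receptor that marks the starting monocytes, had lower means on day 3, at 160 against 343 RPKM in WT and 178 against 365 RPKM in DKI cells. Its log2 differences were -1.08 (95% interval -2.21 to 0.04, limma adjusted p = 0.0983) in WT and -1.53 (95% interval -3.68 to 0.61, limma adjusted p = 0.219) in DKI cells. The calls for both genes turned on single libraries. Without WT replicate 3 of day 0, *Ccr1* was called lower in WT MDCs (-0.76, limma adjusted p = 0.029). Without WT replicate 1 of day 0, *Ccr2* was called lower in WT MDCs (-1.48, limma adjusted p = 0.0351), and without DKI replicate 3 of day 3 it was called lower in DKI MDCs (-2.44, limma adjusted p = 0.0456). Without DKI replicate 1 of day 3, by contrast, the difference of *Ccr2* in DKI cells was -0.66 (limma adjusted p = 0.493).

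**Figure D2:**
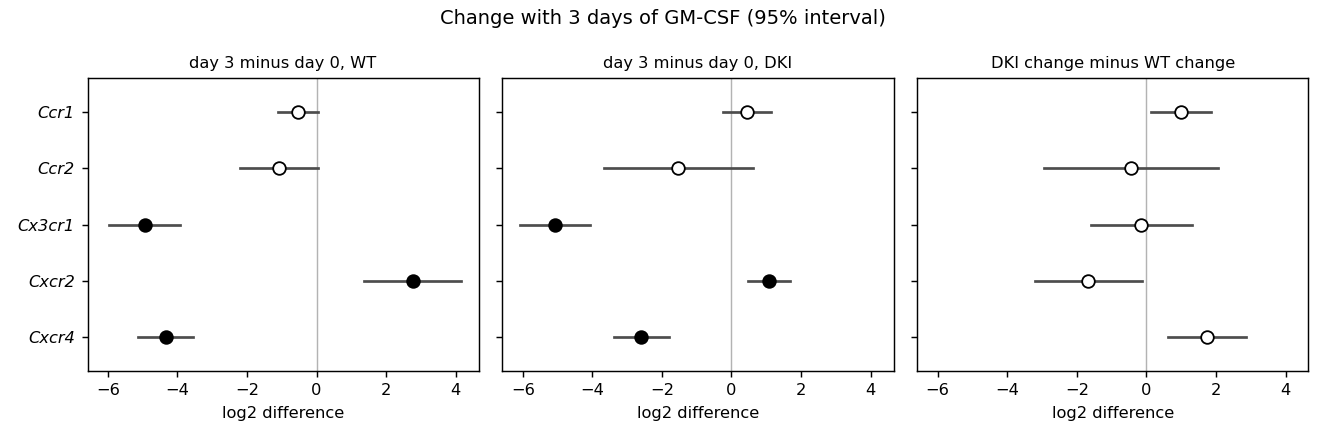
Change of each receptor from day 0 to day 3 in WT and in DKI cells, and the DKI change minus the WT change, as log2 differences of RPKM + 1. Circles are estimates from 3 libraries a group, lines 95% intervals, and filled circles receptors called at adjusted p under 0.05 and fold over 1.5. *Cx3cr1*, *Cxcr2* and *Cxcr4* are filled in both genotypes, and the right panel has no filled circle.

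Between day 3 and day 6, 0 of 4 receptors tested were called in either genotype. The background was 0 of 9613 genes in WT (0%, 722 genes at an unadjusted p under 0.05) and 0 of 9540 in DKI cells (0%, 93 genes at an unadjusted p under 0.05) by limma, and voom called 0 in both genotypes, with 706 and 89 genes at an unadjusted p under 0.05. *Cxcr4* in WT cells was 10.6, 26.2 and 15.5 RPKM on day 3 and 35.6, 32.8 and 55.3 RPKM on day 6. These 2 groups did not overlap, as was so for 14.3% of all genes, and the log2 difference was 1.25 (95% interval 0.42 to 2.07, limma adjusted p = 0.632). In DKI cells it was 73.5, 25.0 and 39.2 RPKM on day 6, overlapping the day 3 libraries, with a log2 difference of -0.40 (95% interval -1.54 to 0.75, limma adjusted p = 0.999). The DKI change minus the WT change was -1.65 (95% interval -3.05 to -0.24, limma adjusted p = 1), in a test where 0 of 9985 genes were called (0%) and 89 had an unadjusted p under 0.05 (0 called and 58 with voom).

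Between WT and DKI MDCs on day 3, *Ccr1* was higher in DKI cells, and it was the 1 member called of 4 tested, against 723 of 9740 genes (7.42%) called in all, 3.21% higher and 4.21% lower in DKI MDCs. *Ccr1* was 91.8, 85.7 and 107 RPKM in WT and 145, 198 and 199 RPKM in DKI MDCs. The 3 DKI libraries lay above the 3 WT libraries, a pattern that 36.3% of all genes tested had in one direction or the other. The log2 difference was 0.91 ± 0.20 (SE, n = 3 against 3, 95% interval 0.43 to 1.39, limma adjusted p = 0.0463), with DKI higher in 3 of 3 same-numbered pairs.

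The call of *Ccr1* lay at the threshold. It was lost with the replicate number as a block (limma adjusted p = 0.0701, 5.66% of all genes called), with voom on reads recovered from the RPKM values (limma adjusted p = 0.0523), with all 18 libraries in the fit (limma adjusted p = 0.07), without the filter on low values (limma adjusted p = 0.0684) and without replicate 1 of both genotypes (limma adjusted p = 0.0516). Leaving out any of WT replicates 1, 2 and 3 or DKI replicates 2 and 3 also ended it, with limma adjusted p of 0.104 to 0.159, while the log2 difference stayed between 0.83 and 1.06 over all fits that left out libraries. On day 6, *Ccr1* was 99.7, 144 and 54.6 RPKM in WT and 150, 188 and 181 RPKM in DKI MDCs, again without overlap. Its log2 difference was 0.89 (95% interval 0.04 to 1.74), which did not pass correction (limma adjusted p = 0.16).

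*Cxcr4* was also without overlap on day 3, with a log2 difference of 1.70 ± 0.42 (SE, n = 3 against 3, 95% interval 0.70 to 2.70), larger than that of *Ccr1* but not called (limma adjusted p = 0.0615, 0.112 with the replicate block). Without replicate 1 of both genotypes it was 1.05 (limma adjusted p = 0.122). It was called when all 18 libraries shared one estimate of the spread (limma adjusted p = 0.0109). On day 6 the *Cxcr4* levels of the genotypes overlapped, and the log2 difference was 0.05 (95% interval -0.93 to 1.03, limma adjusted p = 0.943). Its highest MDC levels, 91.5 RPKM on day 3 and 73.5 RPKM on day 6, were both in DKI replicate 1.

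*Cxcr2* had lower means in DKI MDCs on both days without being called. On day 3 the log2 difference was -1.59 (95% interval -3.06 to -0.13, limma adjusted p = 0.162), with DKI lower in 3 of 3 pairs, although WT replicate 1 at 2.84 RPKM lay below DKI replicate 2 at 3.09 RPKM. Without WT replicate 1 the difference was -2.31 (limma adjusted p = 0.0342) and without replicate 1 of both genotypes -2.12 (limma adjusted p = 0.0304), both called. On day 6 *Cxcr2* was 1.08, 6.45 and 16.7 RPKM in WT and 3.25, 3.02 and 0.380 RPKM in DKI MDCs, with a log2 difference of -1.18 (95% interval -3.17 to 0.81, limma adjusted p = 0.389). It ran from -2.0 without WT replicate 1 to -0.46 without WT replicate 3, and was -2.28 without replicate 1 of both genotypes (limma adjusted p = 0.223), not called in any of these fits.

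*Ccr2* did not separate the genotypes and varied widely between DKI MDC libraries. On day 3 it was 180, 83.0 and 217 RPKM in WT and 32.5, 106 and 395 RPKM in DKI MDCs. On day 6 it was 155, 73.9 and 137 RPKM in WT and 33.3, 98.7 and 168 RPKM in DKI MDCs. The DKI libraries of day 3 spanned a 12.2-fold range and those of day 6 a 5.03-fold range, against 2.62-fold and 2.10-fold in WT, and DKI replicate 1 was lowest on both days. The log2 difference, DKI minus WT, was -0.41 (95% interval -2.54 to 1.72, limma adjusted p = 0.801) on day 3 and -0.50 (95% interval -1.95 to 0.95, limma adjusted p = 0.617) on day 6. Its sign depended on replicate 1, since without that replicate of both genotypes it was 0.61 on day 3 (limma adjusted p = 0.711) and 0.35 on day 6 (limma adjusted p = 0.688). On day 6, 0 of the 4 receptors tested were called, against 742 of 9842 genes (7.54%), 2.72% higher and 4.82% lower in DKI MDCs, and 7.31% with the replicate block.

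**Figure D3:**
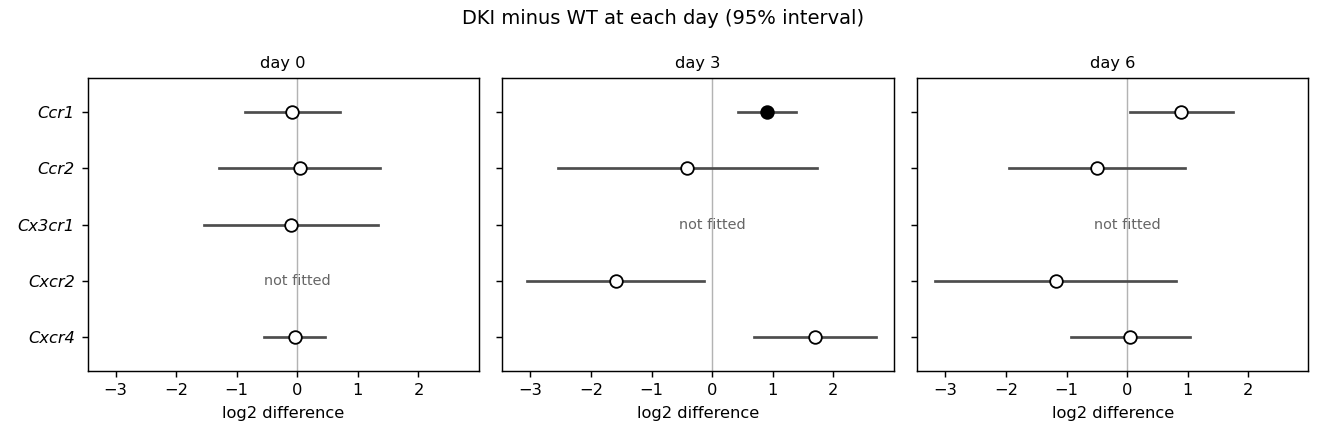
DKI minus WT difference of each receptor on days 0, 3 and 6, as log2 of RPKM + 1. Circles are estimates from 3 libraries a group, lines 95% intervals, and the filled circle is *Ccr1* on day 3, the receptor called at adjusted p under 0.05 and fold over 1.5. The intervals of *Ccr2* cross 0 on all 3 days.

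All genes together were shifted slightly down in DKI MDCs, with a median log2 difference of -0.11 on day 3 and -0.17 on day 6, so *Ccr1* and *Cxcr4* on day 3 lay above the bulk of genes by somewhat more than the values given. After each library was centred on its median, *Ccr1* on day 3 and the 3 calls per genotype between day 0 and day 3 were still made.

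The order of levels over the 6 groups differed by receptor. From highest to lowest group mean, *Ccr1* ran DKI day 3 (180 ± 31.1 RPKM, SD, n = 3), DKI day 6 (173 ± 20.4), WT day 0 (142 ± 44.0), DKI day 0 (135 ± 48.6), WT day 6 (99.4 ± 44.6) and WT day 3 (94.9 ± 11.1). Each neighbour in that order overlapped the next. *Ccr2* ran DKI day 0 (365 ± 207), WT day 0 (343 ± 167), DKI day 3 (178 ± 192), WT day 3 (160 ± 69.3), WT day 6 (122 ± 42.7) and DKI day 6 (99.9 ± 67.1), also with every neighbour overlapping. For *Cxcr4* the gaps were between DKI day 0 (340 ± 41.2) and DKI day 3 (59.0 ± 28.2), and between WT day 6 (41.2 ± 12.3) and WT day 3 (17.4 ± 7.96). For *Cx3cr1* the gap was between DKI day 0 and WT day 6, and *Cxcr2* had no gap between neighbours. Among these 5 receptors, the highest mean within a group was that of *Cxcr4* in WT monocytes, *Ccr2* in DKI monocytes and in WT MDCs of both days, and *Ccr1* in DKI MDCs of both days. In DKI MDCs of day 3 the means of *Ccr1* and *Ccr2* were 180 and 178 RPKM, and replicate 3 alone had more *Ccr2* (395 RPKM) than *Ccr1* (199 RPKM).

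Markers of other states and cells moved with the same groups. The 8 monocyte-derived dendritic cell markers summed to 12201 to 13614 RPKM in WT and 789 to 2417 RPKM in DKI MDCs of day 3, and 5 of the 8 were called lower (4 with the block). The 11 classical monocyte markers, a list without *Ccr2* itself, summed to 1860 to 4044 RPKM in WT and 9435 to 21667 RPKM in DKI MDCs of day 3, and to 3067 to 4437 RPKM and 10751 to 15106 RPKM on day 6, without overlap on either day, and 1 of the 11 was called higher on each day (1 in either direction with the block). These sums do not show a kept monocyte state: the list includes *Fcgr1*, a macrophage signature gene in the paper. *Ly6c2* in every DKI library of day 3 lay below its day 0 range, with values in the next paragraph. The 10 macrophage markers summed to 448 to 1275 RPKM in WT and 3775 to 8718 RPKM in DKI MDCs of day 3, the direction of *Ccr1*, and 6 of the 10 were called higher in DKI MDCs with 0 lower (7 in either direction with the replicate block). On day 6 the macrophage markers summed to 637 to 2792 RPKM in WT and 2827 to 10207 RPKM in DKI MDCs. The lists for lymphoid and other dendritic cells held few genes above the filter on day 3, none of them called higher in DKI MDCs. T and NK cell markers summed to 1.12 to 1.90 RPKM in WT and 0.748 to 54.3 RPKM in DKI MDCs, B cell markers to 0.439 to 0.646 RPKM and 1.52 to 7.26 RPKM, and conventional and plasmacytoid dendritic cell markers to 103 to 137 RPKM and 133 to 1249.5 RPKM. Of the 9 T and NK cell, 8 B cell and 8 dendritic cell markers, 1, 1 and 3 were fitted, and the only call was *Zbtb46*, a transcription factor of conventional dendritic cells, which was lower in DKI MDCs. In all 18 libraries 6, 6 and 3 markers of these lists were under 2 RPKM, among them *Cd3e* and *Siglech*. The highest sums rested on 1 gene each, with *Cd4* at 53.2 RPKM and *Bst2* at 1231 RPKM in DKI replicate 1 and *Cd79b* at 6.89 RPKM in DKI replicate 3. The part of these shifts in the receptor levels was not tested.

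The DKI library with the lowest *Ccr2* and highest *Cxcr4* on day 3, replicate 1, also had the lowest level of *Itgax*, the CD11c gene, at 30.0 RPKM against 321 and 191 RPKM in the other DKI libraries. It had the highest *Ly6c2*, at 775 RPKM against 49.5 and 73.8 RPKM, although *Ly6c2* and *Ccr2* are both classical monocyte genes. Neutrophil markers are given beside *Cxcr2*, whose known main site is the neutrophil. *Csf3r*, the G-CSF receptor, was higher in DKI MDCs on day 3 (4.67, 1.85 and 2.24 RPKM in WT and 89.3, 13.5 and 26.0 RPKM in DKI, limma adjusted p = 0.0426). *Ly6g* was at most 0.525 RPKM in WT MDCs of day 3, where *Cxcr2* was highest, and 7.03, 1.38 and 2.93 RPKM in DKI MDCs. Of 14 neutrophil markers fitted on day 3, 2 were called higher in DKI MDCs and 0 lower (3 in either direction with the block), and their sums overlapped, at 281 to 4762 RPKM in WT and 1722 to 3762 RPKM in DKI.

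Other chemokine receptors were few in these cells. Of 18 in the table, 15 had a mean of at most 2 RPKM in every group, and *Ccr7* and *Ccrl2* were among those above it. *Ccr7*, which directs dendritic cells to lymph nodes, was 118, 229 and 60.8 RPKM in WT and 16.9, 4.36 and 0.601 RPKM in DKI MDCs of day 3, and it was called lower in DKI on both days. *Ccrl2*, an atypical receptor that binds chemerin, fell in WT cells (log2 difference -3.49 ± 0.31, limma adjusted p = 0.000303), and its change in DKI cells was -1.75 (limma adjusted p = 0.131). With the replicate block it was called higher in DKI MDCs on day 6 (log2 difference 1.46, limma adjusted p = 0.0452 against 0.0747 without the block).

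The ligands of CCR2 differed between genotypes far more than the receptor did. Of 8 ligands of CCR1 and CCR2, 3 were called higher and 0 lower in DKI MDCs on day 3 (median log2 difference 1.0, against -0.11 over all genes), and 2 were called higher and 0 lower on day 6, against 3.21% and 2.72% of all genes called higher. *Ccl2* was 27.9, 45.3 and 11.1 RPKM in WT and 1095, 1706 and 529 RPKM in DKI MDCs of day 3 (log2 difference 5.30 ± 0.61, SE, limma adjusted p = 0.00953). *Ccl7* was 8.49, 2.42 and 0.854 RPKM in WT and 1023, 677 and 182 RPKM in DKI MDCs (log2 difference 7.0 ± 0.81, limma adjusted p = 0.00966). *Ccl12* was 6.56, 0.892 and 0.406 RPKM in WT and 520, 126 and 59.4 RPKM in DKI MDCs (log2 difference 5.87 ± 0.93, limma adjusted p = 0.0207). On day 6 *Ccl2* and *Ccl7* were called again, and *Ccl12* was called with the replicate block only (limma adjusted p = 0.0124 against 0.072 without it). The other ligands of the list were not called on day 3: *Ccl6*, at 645, 1143 and 2212 RPKM in WT and 2342, 2017 and 4103 RPKM in DKI MDCs, overlapped between genotypes (log2 difference 1.19, limma adjusted p = 0.217), and *Ccl3* differed by 0.04 (limma adjusted p = 0.979). *Ccl9* differed by 0.81 (limma adjusted p = 0.426) and *Ccl4* by 0.077 (limma adjusted p = 0.958). *Ccl5* was 102, 281 and 51.3 RPKM in WT and 1773, 14.6 and 7.42 RPKM in DKI MDCs of day 3, so that DKI replicate 1 lay above and the other DKI libraries below all WT libraries (log2 difference -0.90, 95% interval -5.71 to 3.90, limma adjusted p = 0.804). On day 6 it was 1019.9, 1206 and 2285 RPKM in WT and 539, 20.1 and 135 RPKM in DKI MDCs, without overlap and not called (log2 difference -3.61, limma adjusted p = 0.0933).

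*Cx3cl1*, the ligand of CX3CR1, had the opposite direction. It was at most 0.218 RPKM in monocytes of either genotype, 5.91, 8.46 and 3.02 RPKM in WT and 0.687, 0.501 and 0.470 RPKM in DKI MDCs of day 3, and 28.7, 15.4 and 36.3 RPKM in WT and 3.29, 0.660 and 2.89 RPKM in DKI MDCs of day 6. It was called lower in DKI on day 3 (log2 difference -2.05 ± 0.33, limma adjusted p = 0.0212) and on day 6 (-3.12 ± 0.46, limma adjusted p = 0.0205). WT MDCs held the ligand transcript on the days on which the receptor transcript was near 0 in both genotypes.

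*Cxcl12*, the ligand of CXCR4, fell with its receptor. It was 4.0, 7.60 and 6.17 RPKM in WT and 5.16, 10.2 and 7.53 RPKM in DKI monocytes, and at most 0.0639 RPKM in the 6 day 3 libraries. The decrease was called in WT (log2 difference -2.71, limma adjusted p = 0.000333) and in DKI cells (log2 difference -3.01, limma adjusted p = 0.00108). *Mif*, another ligand of CXCR4, was called higher in DKI MDCs of day 3 than in DKI monocytes (log2 difference 1.25, limma adjusted p = 0.0107), and its difference in WT cells was 0.98 (limma adjusted p = 0.0635). Of 5 ligands of CXCR2, 4 were tested between genotypes on each of days 3 and 6, and 0 were called. *Cxcl3* rose in both genotypes from day 0 to day 3, by 4.95 ± 0.83 (SE, limma adjusted p = 0.00334) in WT and 5.42 ± 0.36 (limma adjusted p = 0.00058) in DKI cells, as *Cxcr2* did, while *Cxcl2* fell in WT cells (log2 difference -3.53 ± 0.37, limma adjusted p = 0.000596).

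**Figure D4:**
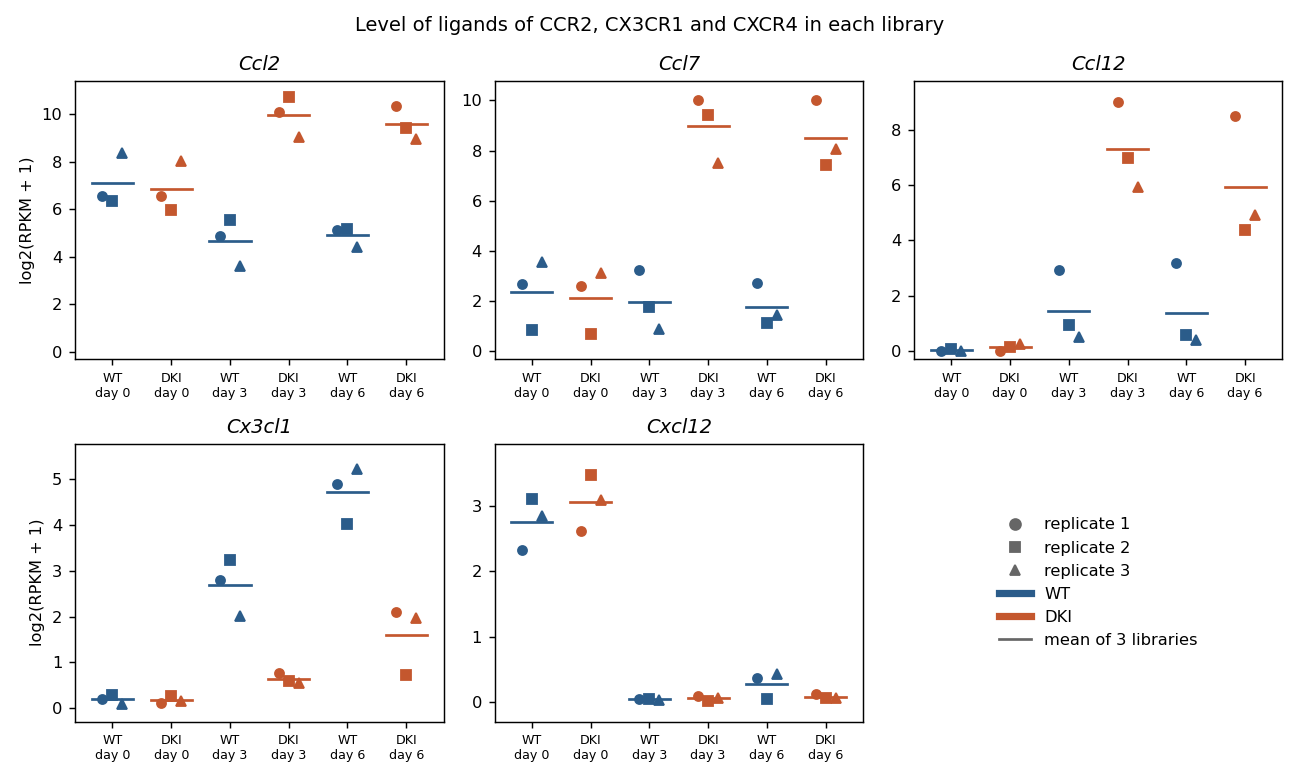
Level of *Ccl2*, *Ccl7* and *Ccl12* (ligands of CCR2), *Cx3cl1* (ligand of CX3CR1) and *Cxcl12* (ligand of CXCR4) in each of the 18 libraries, as log2(RPKM + 1). Points are libraries, with a symbol for each replicate number, and lines are means of 3 libraries. DKI MDCs lie above WT MDCs on days 3 and 6 for *Ccl2*, *Ccl7* and *Ccl12* and below them for *Cx3cl1*, and *Cxcl12* is near 0 in all MDCs.

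Of 18 genes that carry the signal inside the cell, 0 were called higher and 2 lower in DKI MDCs on day 3, and 0 higher and 3 lower on day 6, against 4.21% and 4.82% of all genes called lower (median log2 difference -0.47 on day 3 and -0.43 on day 6, against -0.11 and -0.17 over all genes). *Pik3cg*, the catalytic subunit of phosphoinositide 3-kinase gamma, was lower on both days, at 129, 90.2 and 89.8 RPKM in WT and 32.9, 35.0 and 39.9 RPKM in DKI MDCs of day 3 (log2 difference -1.48 ± 0.19, SE, limma adjusted p = 0.0128). *Plcb2*, a phospholipase C beta, was 56.2, 53.4 and 61.2 RPKM in WT and 10.7, 22.2 and 19.8 RPKM in DKI MDCs of day 3 (log2 difference -1.70 ± 0.27, limma adjusted p = 0.0211). Both had risen in WT cells from day 0, *Pik3cg* by 1.93 (limma adjusted p = 0.00113) and *Plcb2* by 2.23 (limma adjusted p = 0.000128), and the smaller change of *Plcb2* in DKI cells was called (limma adjusted p = 0.0322). On day 6 *Pik3r5*, a regulatory subunit of the same kinase, and *Prex1*, which activates Rac, were lower in DKI MDCs as well (limma adjusted p = 0.0331 and 0.0498), and neither call held with the replicate block (limma adjusted p = 0.0551 and 0.0581). With the block, *Gng2*, a G protein gamma subunit, was called higher in DKI MDCs on day 3 (log2 difference 1.23, limma adjusted p = 0.0298 against 0.0855 without it), and *Plcb2* was called lower on day 6 (log2 difference -1.33, limma adjusted p = 0.0454 against 0.0979).

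Of 13 genes that desensitise these receptors, 1 was called lower and 0 higher in DKI MDCs on each day, a share near the 7.42% and 7.54% of all genes called in either direction. The gene was *Grk3*, a kinase that phosphorylates activated receptors, at 13.4, 16.4 and 8.09 RPKM in WT and 3.72, 4.25 and 3.62 RPKM in DKI MDCs of day 3 (log2 difference -1.44 ± 0.25, SE, limma adjusted p = 0.0264). On day 6 its log2 difference was -1.69 (limma adjusted p = 0.0429, 0.0666 with the replicate block). *Grk2*, the more abundant kinase of this family, fell from day 0 to day 3 in both genotypes, with a log2 difference of -0.86 in WT (limma adjusted p = 0.00653) and -0.95 in DKI cells (limma adjusted p = 0.0124), and differed between genotypes on day 3 by -0.11 (limma adjusted p = 0.696). *Rgs1*, which shortens G protein signals, was called higher in DKI MDCs on day 6 with the block only (log2 difference 1.46, limma adjusted p = 0.0289 against 0.0767).

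The genes whose pattern over the 18 libraries was most like each receptor were found by the smallest root-mean-square difference of centred log2(RPKM + 1) among 10417 genes. For *Ccr1* these were *Soat1*, *Fbxl2* and *Sirpa*, at 0.24 to 0.27 log2 units. For *Cx3cr1* they were *Tubb1*, *Hpgd* and *Nr4a2*, at 0.45 to 0.56 log2 units. *Cxcr2* was closest to *Alpk2*, *Tnfsf15* and *Rtn4rl2* (0.53 to 0.57), and *Cxcr4* to *Pou2f2*, *Rnf144a* and *Lbp* (0.56 to 0.60). *Ccr2* had the most distant neighbours, *Add3*, *Anp32e* and *Abca6*, at 0.65 to 0.66 log2 units. Likeness here is a description over libraries that share groups and experiments.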

How the data were processed

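Per the labels and the study's methods, single-end reads were aligned to mm10 with Subread and counted per RefSeq gene with featureCounts, and the authors deposited RPKM values for 18 libraries. Tool versions and the handling of strand and of multiply mapping reads are not given in the sources used here. The authors' own test used edgeR on counts, not analysed here. Of the identifiers, 20082 matched RefSeq and 216 did not.

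The value of 1 read was found in each library from single-exon receptor genes, and 14973 of 14975 genes with at least 6 values above 0 then came out as whole reads (within 0.02 reads, or a relative 3e-07), which gave the depth. No pair of libraries had identical values.

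Differences were tested with limma 3.58.1 (R 4.3.3, empirical Bayes with trend, two-sided) on log2(RPKM + 1), over genes with a mean above 2 RPKM in at least 1 compared group, using only the libraries compared. After the study's thresholds, calls needed a fold over 1.5 and p-values under 0.05 after Benjamini-Hochberg correction. The test was checked on simulated data. Nothing in the labels says that replicates came from separate animals, so p-values measure the spread between these samples.

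Same-numbered libraries of the genotypes deviated together on each day (correlations of deviations 0.686 to 0.865 on day 0, 0.163 to 0.369 on day 3 and 0.338 to 0.413 on day 6), as did days 3 and 6 (at least 0.125 in WT and 0.32 in DKI), so the numbers were taken to pair these groups, and for these comparisons blocked values stand beside a result of a receptor or named gene where the call changed.

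Named genes were the 5 receptors, members of the receptor, ligand, signalling and desensitisation lists, first those called between genotypes, and the 3 genes most like each receptor. *Ly6c2*, *Itgax*, *Csf3r* and *Ly6g* were singled out after their values were seen. The receptors and lists were chosen with earlier results of these data known. Other marker lists had these calls in DKI against WT MDCs of day 3: nonclassical monocytes 1 higher and 3 lower of 5 fitted (2 in either direction with the block), conventional and plasmacytoid dendritic cells 0 higher and 1 lower of 3, and eosinophil, basophil and mast cell (5 fitted), T and NK cell (1) and B cell (1) lists 0 in either direction. Erythroid and hepatocyte lists had 0 genes fitted. Some genes are not reported here.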

Additional observations from a re-analysis of the deposited data

Results flagged for a closer look

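*Cxcr2* stood out because its genotype difference had opposite signs at day 0 and day 3 in all pairs. DKI was above WT in 3 of 3 same-numbered pairs of monocytes, at levels under 1 RPKM, and below WT in 3 of 3 pairs of day 3 MDCs (mean log2 difference -1.59). The day 0 differences were small, at 0.031, 0.0031 and 0.22 in the pairs, from 25 to 100 reads in WT and 41 to 97 in DKI libraries. Fitted without the filter on low values, the day 0 difference was 0.08 (limma unadjusted p = 0.607), so no reversal was shown. The test of the difference between the days did not pass correction (limma adjusted p = 0.269).

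*Cxcr4* stood out because, by replicate number, it was higher on day 6 than on day 3 in 3 of 3 WT pairs and lower in 3 of 3 DKI pairs (mean log2 difference -0.40 in DKI and 1.25 in WT). The difference between these changes did not pass correction (limma adjusted p = 1).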

How the results depend on the processing

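The calls of *Cx3cr1* and *Cxcr4* between day 0 and day 3 held in both genotypes under each alternative run, and the log2 changes over fits that left out 1 library were -5.44 to -4.60 (WT) and -5.54 to -4.68 (DKI) for *Cx3cr1* and -4.66 to -4.05 (WT) and -2.95 to -2.38 (DKI) for *Cxcr4*. With a pseudocount of 0.1 in place of 1, the change of *Cx3cr1* was -6.69 in WT and -7.55 in DKI cells, and that of *Cxcr2* was 3.92 in WT and 1.82 in DKI cells. Of 39 receptor results, 2 changed sign in a fit that kept all libraries, both for *Ccr1* after median centring, which gave 0.018 from day 3 to day 6 in DKI cells and 0.0499 for the genotype by time difference of those days. Neither was called, and the cause was not tested. Voom on recovered reads and the fits without replicate 1 of days 3 and 6 were chosen after seeing the data.

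On day 3, the number of receptors called between genotypes was 0 without the RPKM filter, with the replicate block and with voom, and 0 to 1 in fits that left out 1 library. Genes called on day 3 numbered 358 without the filter and 1359 with all 18 libraries in the fit, and 197 to 718 in fits that left out 1 library. On day 6 they numbered 187 without the filter, 1573 with all 18 libraries and 464 with voom, and 95 to 991 in fits that left out 1 library. With all 18 libraries, 6 genes were called at day 0 and 16 between day 3 and day 6 in WT, which was 0 to 1 in fits that left out 1 library. Median centring moved the share of higher calls on day 6 from 36.1% to 53.1%, and from 38.2% to 51.8% between day 0 and day 3 in DKI cells. For the genotype by time difference of days 0 and 3, 94 genes were called with voom against 297, and 123 to 334 in fits that left out 1 library, with 0 to 1 receptors. In DKI cells, 1980 to 3381 genes were called between day 0 and day 3 in fits that left out 1 library.

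Uncalled differences changed sign when single libraries were left out. At day 0 the DKI minus WT difference ran from -0.36 to 0.14 for *Ccr1*, -0.38 to 0.50 for *Ccr2*, -0.62 to 0.36 for *Cx3cr1* and -0.24 to 0.11 for *Cxcr4*. Same-numbered day 0 libraries deviated together, so leaving out 1 unbalances the pairs, and these ranges include the spread between replicate numbers. With the replicate block the day 0 standard errors were 0.067, 0.065, 0.082 and 0.080 for these genes in that order, against 0.32, 0.55, 0.59 and 0.21 without it. *Ccr2* ran from -1.32 to 0.46 on day 3 and -1.0 to 0.14 on day 6, and *Cxcr4* from -0.35 to 0.41 on day 6. From day 3 to day 6, *Ccr1* ran from -0.35 to 0.34 in WT and -0.21 to 0.046 in DKI cells, *Ccr2* from -1.31 to 0.48 in DKI cells, and *Cxcr2* from -1.40 to 0.15 in WT and -0.55 to 0.27 in DKI cells. The genotype by time difference of days 0 and 3 ran from -1.36 to 0.42 for *Ccr2* and -0.61 to 0.37 for *Cx3cr1*, and that of days 3 and 6 from -0.39 to 0.30 for *Ccr1*, -0.96 to 0.82 for *Ccr2* and -0.41 to 1.14 for *Cxcr2*. Without replicate 1 of days 3 and 6, the day 3 comparison of genotypes called 375 genes and that of day 6 called 36, and 1 receptor, *Cxcr2*, was called for the genotype by time difference of days 0 and 3. In the same fits *Ccr2* was 0.61 on day 3, 0.35 on day 6 and 0.56 for the genotype by time difference of days 0 and 3, *Cxcr4* was -0.43 on day 6, *Cx3cr1* was 0.048 for the genotype by time difference of days 0 and 3, and that of days 3 and 6 was 0.0062 for *Ccr1* and -0.16 for *Cxcr2*.

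Day 0 and day 3 libraries of the same number did not deviate together in every pair (lowest correlation -0.208 in WT and -0.0137 in DKI). With the replicate number as a block, *Ccr2* was called between day 0 and day 3 in DKI cells (limma adjusted p = 0.0458), and genes called there numbered 3788 in WT and 3179 in DKI cells. Between genotypes the block left 551 genes called on day 3 and 719 on day 6, and apart from *Ccr1* on day 3 it changed no call of the 5 receptors. Precision is limited by 3 libraries a group rather than by depth for *Ccr1*, *Ccr2* and *Cxcr4*, with at least 677 reads in each library. *Cx3cr1* had at most 198 reads in any MDC library.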
